A study of Mus musculus with 3 samples.

Results

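The genes described here are named for the proteins of the mitochondrial ribosome, and all but Mrps36 are taken to encode them. They were chosen by name, as every gene with at least 1 protein-coding transcript whose symbol starts with Mrpl or Mrps followed by a digit. The rule found 78 of 55536 annotated genes, among 21888 nuclear genes with a protein-coding transcript, called coding genes below. No measured value enters the rule.

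The mitochondrial ribosome translates the 13 messenger RNAs of the mitochondrial genome, which all encode subunits of the respiratory chain or of ATP synthase. Its proteins are encoded in the nucleus, made on cytosolic ribosomes and imported. Some have relatives in bacterial ribosomes, and others are found only in mitochondria. In macrophages, signalling from TLR4 is known to shift energy metabolism from respiration towards glycolysis over hours.

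The series held 3 libraries of 1 group: macrophages grown from bone marrow of C57BL/6J mice, 10 minutes after addition of Lipid A at 100 ng/ml. Lipid A is the part of bacterial lipopolysaccharide that TLR4 binds. RNA came from the cytosolic fraction and was depleted of ribosomal RNA. No untreated cells and no other fraction were part of the series analysed here, so each value is a level and not a response. The labels number the libraries as biological replicates, but all share 1 donor identifier, sex and age were not collected, and nothing says whether they came from separate animals or cultures. The p-values below therefore measure only the spread between these samples, which may be technical.

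Counts assigned to genes totalled 33825547, 54667365 and 43176007 in replicates 1, 2 and 3. Levels are given as TPM, a transcript's share of all transcripts, scaled to a fixed total, that allows for transcript length. Coding genes held 23.5% to 25.6% of the TPM and other genes the rest, so levels of coding genes are low on this scale. A count of 0 allows up to 3 counts, which on a transcript of 1 kb was 0.045, 0.029 and 0.040 TPM, for counting error only. Each of the 8 macrophage markers exceeded 10 TPM throughout, with sums of 8177, 7143 and 7896 TPM in replicates 1, 2 and 3. No marker of B cells, T cells, erythroid cells or stroma reached 1 TPM. Of 5 neutrophil markers, S100a8 and S100a9 alone passed 1 TPM, Ly6g was at 0, and the sums were 21.8, 35.03 and 32.7 TPM. Libraries differed in other marker lists. Dividing-cell markers (Top2a, Mki67 and Cdk1) summed to 12.1, 12.2 and 36.3 TPM in replicates 1, 2 and 3, and the nuclear RNAs Malat1, Neat1 and Xist to 648, 427 and 341 TPM.

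All 78 genes were measured in every library, at levels near the middle of the detected coding genes. Each was at 1 TPM or more in all 3 libraries, against 41.8% of coding genes. A level of 10 TPM was reached in all libraries by 30 members, or 38.5%, against 16% of all coding genes. Among the 9366 coding genes whose mean was at least 1 TPM, called detected below, it was 37.3%, close to the members. The median member was at 8.62, 9.25 and 10.0 TPM in replicates 1, 2 and 3, a mean of 9.30 ± 0.714 TPM (SD, n = 3 libraries). The median of the detected coding genes was 7.29 ± 0.423 TPM. The members' median on the log2(TPM + 1) scale was above that of these detected coding genes by 0.31 ± 0.05. It was above that of all coding genes by 3.14 ± 0.09.

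The members' median was below those of the gene sets their products work with. The 84 nuclear genes matching respiratory chain and ATP synthase subunit names had a median of 39.5 ± 2.67 TPM. The 82 genes of cytosolic ribosomal protein names had 231 ± 1.91 TPM. The 13 mitochondrial messenger RNAs, the templates of the mitochondrial ribosome, had 301 ± 32.2 TPM. Their means ran from 12.8 TPM for mt-Co2, at 0, 9.08 and 29.3 TPM in replicates 1, 2 and 3, to 1928 TPM for mt-Atp8. In all libraries, 12 of the 13 reached 10 TPM. Their median ratio of the highest to the lowest library in TPM was 1.32, against 1.19 in members. How far the cytosolic fraction kept mitochondrial RNA was not tested, so their median may not be comparable with those of nuclear genes. The SD of levels among members on the log2(TPM + 1) scale was 0.86 ± 0.02. It was 1.13 among 7553 coding genes in the members' range of TPM, 1.05 among the 79 cytosolic ribosomal protein genes at 1 TPM or more, 1.04 among 77 such respiratory chain genes and 1.58 among the detected coding genes. These are descriptions of gene sets, whose genes are not replicates, and no test was made on them.

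**Figure D1:**
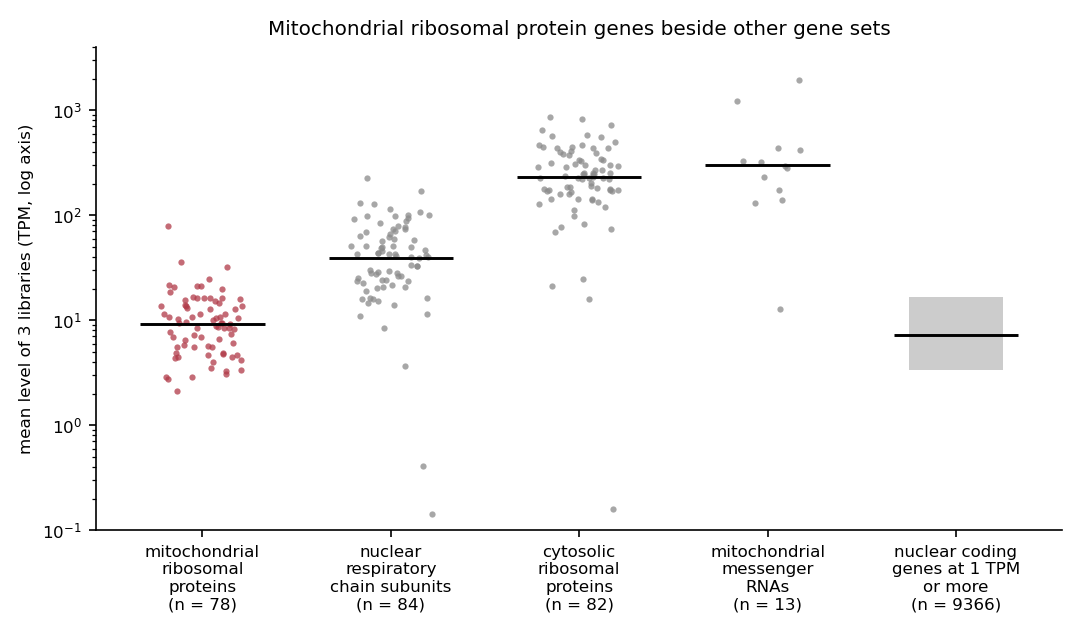
Mean TPM of 3 libraries on a log axis for each mitochondrial ribosomal protein gene (red points) and each gene of the comparison sets (grey points), with the set's median as a black line; for nuclear coding genes at 1 TPM or more, the grey box spans the 25th to 75th percentile, 3.37 to 16.7 TPM. Members run from 2.14 to 79.1 TPM around a median of 9.30 TPM, below the medians of the other sets with points; 2 cytosolic ribosomal protein genes and 5 respiratory chain genes below 0.1 TPM are not drawn.

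Mrps21 was the highest member. It encodes a small-subunit protein of bacterial type, related to one of the smallest proteins of the bacterial ribosome, and lies on chr3:95862634-95871519 of mm10, minus strand (ENSMUSG00000054312.6). It was at 85.4, 74.4 and 77.4 TPM, above 97.9% of coding genes. Every library of Mrps21 was above every library of the next gene, Mrpl33, a small large-subunit protein of bacterial type, at 32.95, 34.9 and 39.3 TPM. Mrpl52, a large-subunit protein found only in mitochondria, followed at 30.8, 29.5 and 35.3 TPM, and its libraries overlapped those of Mrpl33.

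At the other end of the gene table stood Mrpl19, a large-subunit protein of bacterial type that in bacteria lies at the interface between the subunits. It was at 2.18, 1.98 and 2.26 TPM, and all 3 of its libraries were below all 3 of the next member. That next member was Mrps30, at 2.29, 2.87 and 3.15 TPM. The second transcript table, quantified from the reads and not from alignments, gave this pair the other order: Mrpl19 was at 2.80, 1.25 and 1.20 TPM there, above Mrps30 at 1.595, 1.04 and 0.976 TPM in every library, and Mrps30 had the lowest mean of all members. Mrps27, a small-subunit protein with pentatricopeptide repeats, was at 2.65, 2.92 and 3.00 TPM. Between these ends the order was close. Of 77 pairs of neighbours in the order of mean TPM, 74 overlapped between libraries, and the 3 pairs that did not were Mrps21 over Mrpl33, Mrpl52 over Mrpl27 and Mrps30 over Mrpl19.

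**Figure D2:**
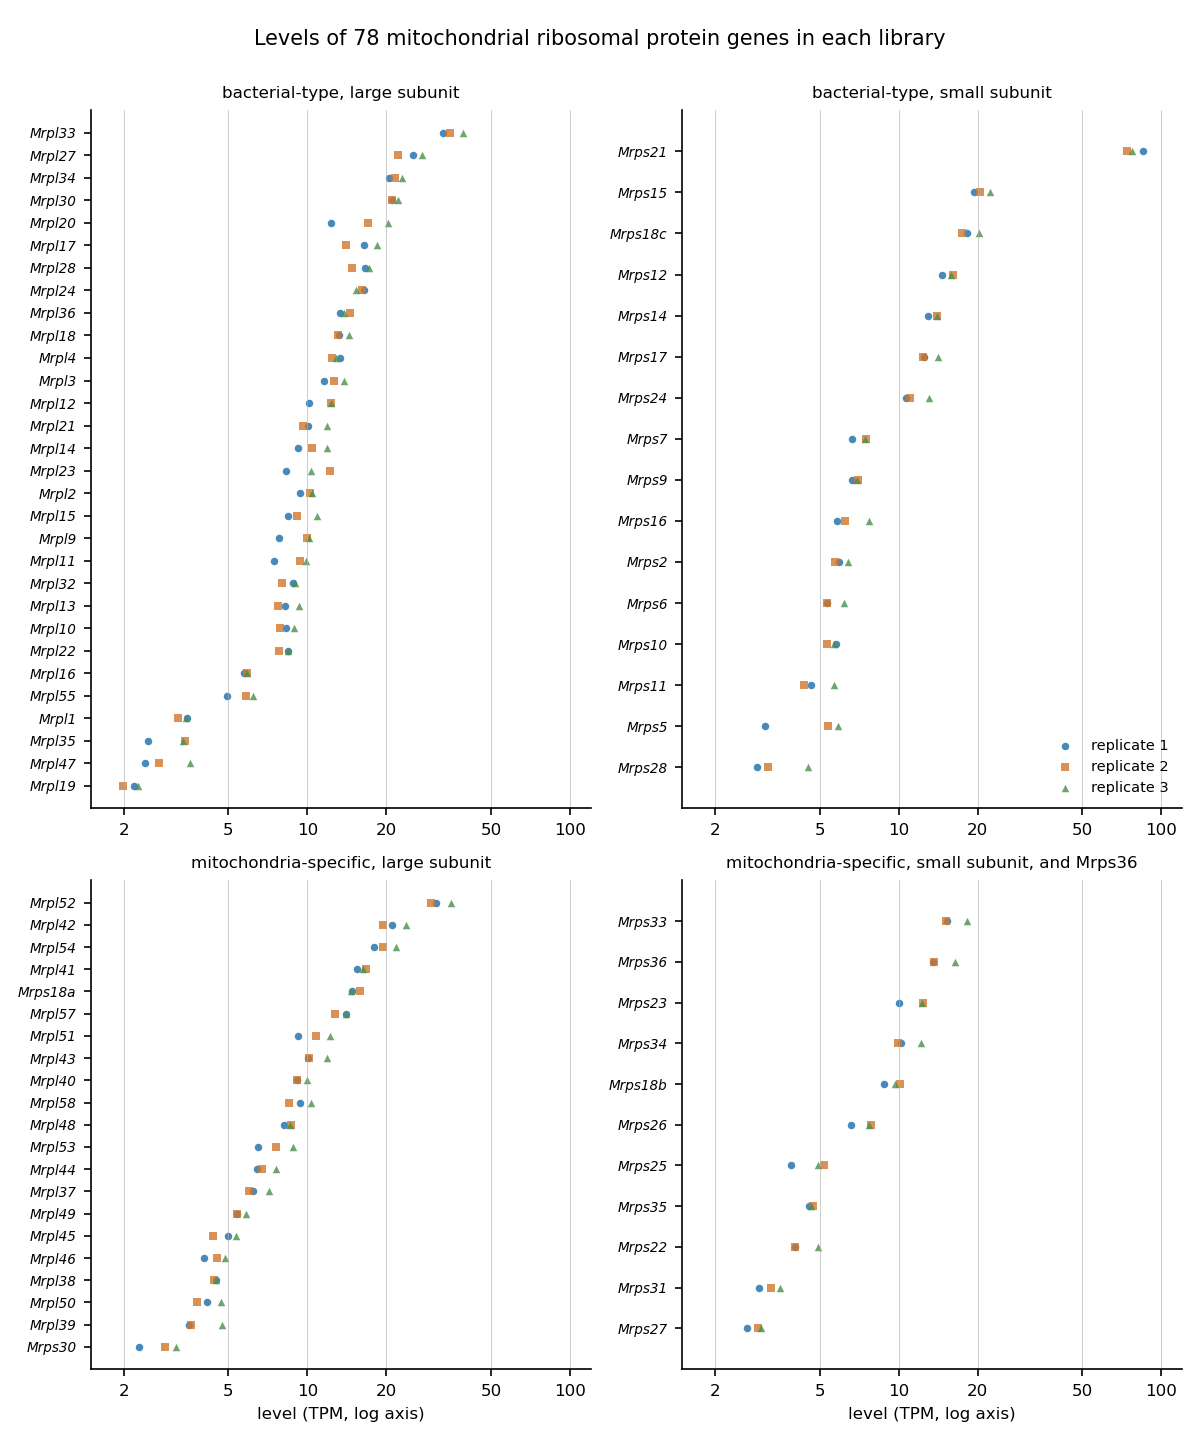
TPM on a log axis of each of the 78 members in replicates 1 (circles), 2 (squares) and 3 (triangles), split by the subunit in which the protein sits and by bacterial or mitochondrial type, and ordered by mean TPM. Mrps21 at 74.4 to 85.4 TPM stands apart on the right, and most other members lie between 2 and 40 TPM with their 3 libraries close together.

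The median of large-subunit genes was above that of small-subunit genes, but their levels overlapped widely. By the subunit in which the protein sits, the median of 51 large-subunit members was 9.66 ± 0.607 TPM and that of 26 small-subunit members 7.14 ± 0.498 TPM. The 25th to 75th percentiles were 6.145 to 14.5 TPM and 4.81 to 12.7 TPM. Summed levels were 576 and 299 TPM, so the order of the medians did not hold for the means per gene. The difference of median log2(TPM + 1), large minus small, was 0.41, 0.36 and 0.40 in replicates 1, 2 and 3. By symbol alone, Mrpl against Mrps, it was 0.37 ± 0.04. The symbols mislead for a few genes. Mrps18a and Mrps30 encode proteins of the large subunit, and Mrps36 encodes a subunit of the 2-oxoglutarate dehydrogenase complex, an enzyme of the citric acid cycle, and sits in neither subunit.

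Among 30 large-subunit genes of bacterial type, the median was 10.3 ± 1.02 TPM (SD, n = 3 libraries), and 13 reached 10 TPM in all libraries. After Mrpl33, the highest were Mrpl27, Mrpl34 and Mrpl30. Mrpl27, related to a bacterial protein that reaches the peptidyl transferase centre where peptide bonds form, was at 25.1, 22.1 and 27.3 TPM. Mrpl34 was at 20.5, 21.5 and 22.9 TPM and Mrpl30 at 21.04, 20.9 and 22.2 TPM. The lowest after Mrpl19 were Mrpl47, whose bacterial relative sits by the exit of the peptide tunnel, and Mrpl35. Mrpl47 was at 2.40, 2.71 and 3.58 TPM and Mrpl35 at 2.48, 3.42 and 3.36 TPM, so the libraries of this pair overlapped. The stalk that recruits translation factors is made of Mrpl12 on Mrpl10 and Mrpl11. Mrpl12 was at 11.6 ± 1.22 TPM, Mrpl11 at 8.89 ± 1.28 TPM and Mrpl10 at 8.37 ± 0.522 TPM. The ribosome is known to hold several copies of the Mrpl12 protein.

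The 21 large-subunit genes found only in mitochondria had a median of 8.49 ± 0.361 TPM, and 7 reached 10 TPM in all libraries. Mrpl42, at 21.1, 19.4 and 23.6 TPM, Mrpl54, at 17.9, 19.4 and 21.7 TPM, and Mrpl41, at 15.5, 16.7 and 16.3 TPM, followed Mrpl52. Mrpl50 was at 4.21 ± 0.434 TPM and Mrpl39 at 3.96 ± 0.659 TPM, the lowest after Mrps30. Mrpl45, which ties the ribosome to the inner membrane, was at 4.89 ± 0.502 TPM. Mrpl58, a peptidyl-tRNA hydrolase that became a ribosomal protein, was at 9.38 ± 0.891 TPM.

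The 16 small-subunit genes of bacterial type had a median of 7.16 ± 0.471 TPM, and 7 reached 10 TPM in all libraries. After Mrps21, the highest were Mrps15 at 20.7 ± 1.53 TPM, Mrps18c at 18.7 ± 1.45 TPM and Mrps12 at 15.6 ± 0.777 TPM. Mrps12 is the protein at the decoding site. Mrps11 was at 4.64, 4.36 and 5.69 TPM and Mrps5 at 3.10, 5.37 and 5.86 TPM. Mrps28 was the lowest, at 2.90, 3.19 and 4.51 TPM. The 10 small-subunit genes found only in mitochondria had a median of 6.14 ± 0.518 TPM, from Mrps33 at 16.2 ± 1.76 TPM through Mrps23 at 11.6 ± 1.33 TPM and Mrps34 at 10.8 ± 1.24 TPM to Mrps22 at 4.33 ± 0.523 TPM, Mrps31 at 3.25 ± 0.301 TPM and Mrps27, the lowest, at 2.86 ± 0.183 TPM. Mrps23 and Mrps33 reached 10 TPM in every library, and no other gene of that class did.

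The mammalian relatives of bacterial protein S18 are a family of 3 genes whose products occupy different sites. Mrps18a and Mrps18b are counted above with the genes found only in mitochondria, since their sites are not the bacterial one. Mrps18c, which takes the bacterial site, was at 18.3, 17.5 and 20.3 TPM. Mrps18a, in the large subunit, was at 14.7, 15.9 and 14.7 TPM, below Mrps18c in every library. Mrps18b, at another small-subunit site, was at 8.77, 10.2 and 9.67 TPM, below both in every library. Mrps36 was at 13.5, 13.6 and 16.4 TPM, within the range of the ribosomal members.

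Members with short transcripts had the higher TPM. Spearman's rho between mean TPM and the mean effective length of the gene's transcripts was -0.72 over the 78 members and -0.15 over the 9366 detected coding genes. Between the count, without division by length, and effective length it was 0.25 over the members and 0.38 over the detected coding genes. The points share libraries and the length enters the TPM itself, so these are descriptions. The median effective length was 829 bases in members, from 189 bases in Mrpl52 to 4573 bases in Mrpl19, against 2354 bases in detected coding genes.

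The promoter windows of members were read next. A RefSeq window of 300 bases, from 250 before to 50 after the annotated start (GRCm38.p6), was matched by symbol for 69 of the 78 members. It was missing for Mrpl4, Mrpl13, Mrpl15, Mrpl19, Mrpl38, Mrpl54, Mrps28, Mrps34 and Mrps35. Both strands were searched for the letters CCGGAAG, as bound by ETS factors such as GABP, GCGCATGC, as bound by NRF1, AAGATGG, as bound by YY1, and TATAAA, the TATA box. The last 3 letters of the ETS string are the first 3 of the YY1 string, so neighbouring matches can share letters. GABP, NRF1 and YY1 are known regulators of nuclear genes for mitochondrial proteins.

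The ETS letters stood in 26 members' windows (37.7%), against 23.4% of 7521 detected coding genes with a window. The YY1 letters stood in 13 (18.8%), against 9.35%, and the NRF1 letters in 8 (11.6%), against 6.73%. The TATA letters stood in 5 (7.25%), against 8.14%. In windows of cytosolic ribosomal protein genes the shares were 40.3% for ETS, 16.1% for YY1 and 4.84% for NRF1 letters, and in those of respiratory chain genes 24.2%, 15.2% and 15.2%. Windows of members had a median GC content of 58%, against 61%. The 26 members with ETS letters had a median of 12.1 TPM, from 2.86 to 79.1 TPM. The 43 without had 7.2 TPM, from 2.77 to 21.4 TPM. For the NRF1, YY1 and TATA letters the order was the other way. Medians with and without them were 8.94 and 10.0 TPM for NRF1, 8.58 and 9.465 TPM for YY1, and 8.46 and 9.465 TPM for TATA letters. A match is a string of letters and not a measured site.

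The windows of 5 members are shown because they span the levels described above: the 3 highest, 1 of a pair of members that start beside each other, and the lowest with a window. They lie at chr3:95871465-95871764 on the minus strand (Mrps21), chr5:31613701-31614000 on the plus strand (Mrpl33) and chr14:54426659-54426958 on the plus strand (Mrpl52). Those of the other two lie at chr7:78782881-78783180 on the plus strand (Mrps11) and chr13:118387203-118387502 on the minus strand (Mrps30). Each is written 5′ to 3′ along its gene, and capitals mark the matched letters on either strand.
Mrps21: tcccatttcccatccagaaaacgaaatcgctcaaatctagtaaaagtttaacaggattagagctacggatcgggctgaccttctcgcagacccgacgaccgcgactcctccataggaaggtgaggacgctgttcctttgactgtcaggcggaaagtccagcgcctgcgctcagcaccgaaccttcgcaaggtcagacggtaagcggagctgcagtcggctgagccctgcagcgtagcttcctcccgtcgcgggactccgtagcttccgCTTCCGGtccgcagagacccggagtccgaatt
Mrpl33: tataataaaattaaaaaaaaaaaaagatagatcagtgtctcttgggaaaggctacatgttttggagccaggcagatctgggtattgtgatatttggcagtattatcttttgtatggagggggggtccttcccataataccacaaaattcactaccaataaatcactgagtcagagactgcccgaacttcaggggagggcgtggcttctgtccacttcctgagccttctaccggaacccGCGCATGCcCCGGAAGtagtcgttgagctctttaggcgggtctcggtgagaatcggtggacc
Mrpl52: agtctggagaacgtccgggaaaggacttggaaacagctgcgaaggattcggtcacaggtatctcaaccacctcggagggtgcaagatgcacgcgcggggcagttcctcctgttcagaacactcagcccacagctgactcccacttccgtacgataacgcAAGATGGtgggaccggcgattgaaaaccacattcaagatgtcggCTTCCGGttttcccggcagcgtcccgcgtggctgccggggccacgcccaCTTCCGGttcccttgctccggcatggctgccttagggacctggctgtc
Mrps11: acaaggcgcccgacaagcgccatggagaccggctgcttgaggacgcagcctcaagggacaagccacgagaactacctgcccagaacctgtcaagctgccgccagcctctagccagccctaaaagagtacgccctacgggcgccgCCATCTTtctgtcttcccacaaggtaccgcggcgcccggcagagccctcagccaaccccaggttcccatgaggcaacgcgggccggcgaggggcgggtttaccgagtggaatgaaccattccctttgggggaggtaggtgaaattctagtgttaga
Mrps30: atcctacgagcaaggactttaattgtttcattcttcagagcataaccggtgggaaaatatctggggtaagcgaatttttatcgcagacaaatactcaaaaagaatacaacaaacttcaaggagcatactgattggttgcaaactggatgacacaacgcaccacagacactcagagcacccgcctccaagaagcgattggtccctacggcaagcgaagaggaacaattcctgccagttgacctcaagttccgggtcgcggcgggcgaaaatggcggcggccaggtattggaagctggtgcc
Counting from 1 at the start, with the base before it as -1, the ETS letters of Mrps21 begin at position 19 on the opposite strand, inside the transcribed part. In Mrpl33 the NRF1 letters begin at -12 and the ETS letters at -3. Mrpl52 has YY1 letters at -91 and ETS letters on the opposite strand at -47 and 3. Mrps11 has YY1 letters alone, on the opposite strand at -106. Mrps30, at 2.77 ± 0.439 TPM, holds none of these letter strings.

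Members often had another coding gene starting nearby on the opposite strand. Such a head-to-head partner, with starts at most 1000 bases apart, was annotated for 33 members (42.3%), against 18.6% of detected coding genes. The distance was taken in either direction, so the genes of a pair may also overlap at their starts. In 1 case both were members: Mrpl46 and Mrps11, of the large and the small subunit, start 412 bases apart on chromosome 7. Each starts inside the other, so the genes overlap over that stretch, and the Mrps11 window above covers it in part. Mrpl46 was at 4.47 ± 0.417 TPM and Mrps11 at 4.90 ± 0.701 TPM. Some other partners also serve mitochondria or protein synthesis. Ndufs6 and Ndufb5, subunits of respiratory complex I, start 29 bases from Mrpl36 and 615 bases from Mrpl47. Both overlap the member they start beside. Sars2, the mitochondrial seryl-tRNA synthetase, starts 172 bases from Mrps12, and Fau, which encodes a cytosolic ribosomal protein fused to a ubiquitin-like domain, 59 bases from Mrpl49. Levels within these pairs could be far apart: Mrpl49 was at 5.54 TPM and Fau at 558 TPM, and Mrps12 at 15.6 TPM and Sars2 at 1.397 TPM. These partners were named after their values were seen. A gene at 1 TPM or more overlapped a member on the opposite strand in 17 cases (21.8%), against 16.3%, and whether the counting used strand is not given in the sources used here, so reads of such pairs may not have been told apart.

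The members' counts were then compared between the 3 libraries. Rounded counts were set against normalised library sizes in a chi-square test, adjusted by Benjamini-Hochberg over all 13494 genes tested. The test compares these libraries and allows for counting error only. In it 27 members (34.6%) differed at an adjusted p under 0.05, against 50.1% of all genes tested and 54.9% of the detected coding genes. Calls in this test grow with the number of counts. The median effective length was 829 bases in members and 2354 bases in detected coding genes, so at like TPM members have fewer counts. No share was computed for genes of like counts, so a lower share of members does not show smaller differences. The median ratio of the highest to the lowest library, in normalised counts relative to library size (CPM), was 1.21 among these 27 and 1.10 among the other 51. A ratio of 1.5 or more in TPM was reached by 3 members (3.85%), against 23.3% of all genes tested, many of them at low counts, and 4.94% of coding genes in the members' range of TPM. In CPM it was also reached by 3, against 20.2% of all genes tested and 3.35% of coding genes in that range, so the share of members was near that of genes of like level. Without replicate 1 no member reached the ratio in TPM, and without replicate 3, 1 did.

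The common coefficient of variation between libraries beyond counting error, from edgeR, was 6.83% over members, against 13.7% over 4768 coding genes in the members' range of counts and 14.5% over all genes tested. That contrast depended on replicate 3: without it, the value was 8.09% over members and 9.34% over 4924 coding genes in their range. Without replicate 1 it was 4.11% over members and 13.3% over 4634 such genes.

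Of the 27 members that differed, 24 were lowest in replicate 1 and 0 were highest there. The share highest there among all genes that differed was not computed. This order was read on normalised library sizes. With total counts in their place 20 members differed, of which 13 were among the 27, against 51.9% of genes tested. Which library was lowest in those 20 was not counted. On normalised library sizes, 50.4% of all genes that differed were lowest in replicate 1, and of coding genes that differed, 55.5%. With replicates 2 and 3 alone, 7 members differed, against 27.5% of genes tested. Replicate 1 had the fewest counts and the highest sum of the nuclear RNAs named above, 648 TPM against 427 and 341 TPM in replicates 2 and 3, and the part of either in these differences was not tested. In bulk RNA, fewer cells of a type and less RNA per cell cannot be told apart. Replicate 3, with the highest sum of dividing-cell markers, was highest in TPM in 55 members (70.5%), against 68% of detected coding genes. On TPM rescaled over coding genes alone it was highest in 36 members (46.2%), against 37.2%, and in CPM in 38 members (48.7%), against 39.6%. The median log2 TPM difference of replicate 3 from replicate 1 was 0.16 in members and 0.11 in detected coding genes. These orders depended on the TPM scale. In the second transcript table as deposited, replicate 1 was highest in 78 of 78 members, against 98.8% of detected coding genes, and the median difference of replicate 3 from replicate 1 turned to -0.82 in members and -0.83 in detected coding genes. Rescaled over coding genes, that table had replicate 1 highest in 17 members (21.8%), against 38.6%, and a median difference of 0.04 in members.

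**Figure D3:**
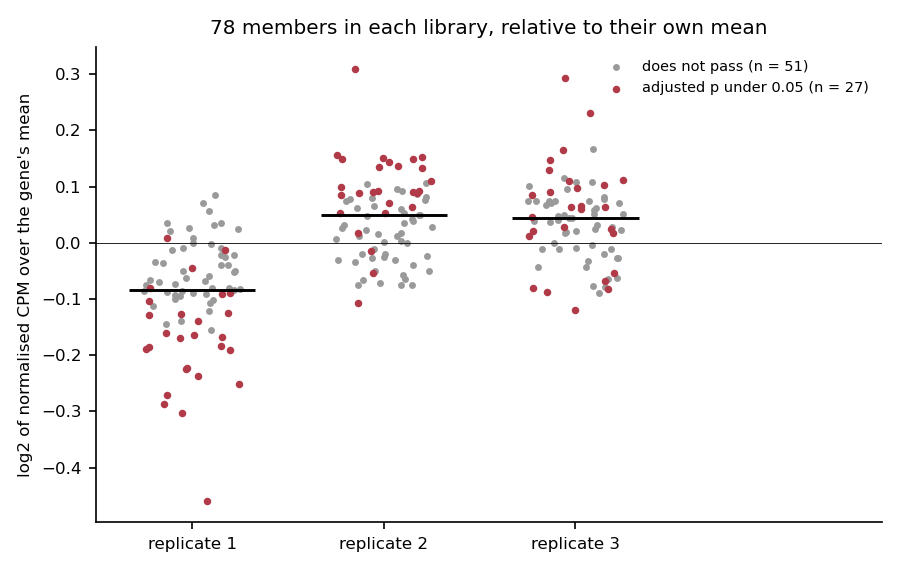
Log2 of the normalised CPM of each member in a library over that member's mean across the 3 libraries; red points are the 27 members whose counts differed between libraries at an adjusted p under 0.05 (chi-square test), grey points the other 51, and black lines the median. Most points lie within 0.2 of 0, and the replicate 1 median lies below those of replicates 2 and 3.

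Mrpl20 stood out most between libraries. It encodes a large-subunit protein whose bacterial relative binds early in assembly, and lies on chr4:155802878-155809975 of mm10. It was at 12.3, 16.98 and 20.3 TPM and at 11.7, 17.7 and 18.9 CPM in replicates 1, 2 and 3, so replicate 1 was low on both scales. The second transcript table gave it 10.6, 6.33 and 6.29 TPM as deposited, with replicate 1 highest, and 61.4, 70.7 and 77.5 TPM after rescaling over coding genes, with replicate 1 lowest. The highest library was 1.61 times the lowest in CPM (adjusted p = 1.37e-14, chi-square test with Benjamini-Hochberg adjustment). Between replicates 2 and 3 alone the adjusted p for Mrpl20 was 0.346 (same test). Mrps28, with 103, 184 and 190 counts, had the lowest counts of all members in replicates 1 to 3 and a ratio of 1.51 in CPM (adjusted p = 0.00519, same test). For Mrps28 the adjusted p was 0.0678 without replicate 1 and 0.303 without replicate 3. Mrps5 had the largest ratio in TPM, 1.89, but a ratio of 1.16 in CPM (adjusted p = 0.0501, same test). For Mrps5 the adjusted p was 0.938 without replicate 1, 0.0353 without replicate 2, 0.0564 without replicate 3 and 0.00495 in the second transcript table. Its longest transcript Mrps5-201, of 4481 bases, was at 1.49, 1.5 and 1.68 TPM. The retained-intron transcript Mrps5-202, of 451 bases, was at 0, 1.2 and 0.6 TPM. Mrps5 has 7 transcripts, and those named do not account for the whole difference in its TPM. Smaller ratios held for the stalk protein Mrpl12, at 20.4, 25.8 and 23.5 CPM (adjusted p = 7.65e-06), and for Mrpl9, at 20.1, 25.8 and 24.6 CPM (adjusted p = 1.73e-06). Both were low in replicate 1, and without it the adjusted p was 0.0789 for Mrpl12 and 0.411 for Mrpl9. Mrpl9 was named after its values were seen.

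Most member RNA was assigned to transcripts of the protein-coding biotype, the annotated type of a transcript. Over all members these held 87.2% of the TPM, transcripts annotated as targets of nonsense-mediated decay 4.91%, retained-intron transcripts 4.03% and other processed transcripts 3.87%. Of the members, 68 had at least 1 transcript of another biotype. The median share of TPM there was 3.22% ± 0.602 (SD, n = 3 libraries), against 3.87% ± 0.874 in detected coding genes. Decay targets count among these other biotypes, so the share need not be RNA without a coding sequence. A share of 50% or more was reached by 12 of these 68 members (17.6%), against 5.02% of detected coding genes that have such a transcript. In the second transcript table it was reached by 12, of which 11 were the same, against 6.37%. By counts in place of TPM it was reached by 7 (10.3%), against 2.66%.

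In 7 of the 12 members, Mrpl57, Mrpl32, Mrps26, Mrps16, Mrps14, Mrpl3 and Mrpl15, the share was 50% or more in counts as well. In Mrps35, Mrpl51, Mrpl47, Mrpl13 and Mrps25 it was above 50% in TPM only, and was between 5.79% and 37.3% in counts. Mrpl57, a large-subunit protein, had 93.6% ± 0.288 of its TPM and 61.5% of its counts in Mrpl57-202, a retained-intron transcript of 519 bases, and the rest in the coding transcript of 2877 bases. Mrps16 had 87.8% ± 0.601 of its TPM in a processed transcript of 801 bases, beside a coding transcript of 2572 bases. Mrps26 had 90.0% ± 0.445 in a retained-intron transcript of 1057 bases, beside a coding one of 4278 bases. Mrpl32, whose protein must be cut by a mitochondrial protease before it joins the ribosome, had 91.2% ± 0.874 in other biotypes. Most of that was in a decay target of 658 bases. Mrps14 had 86.8% ± 2.27 in other biotypes, all of it in a decay target of 674 bases. In Mrpl3 the share was 83.7% ± 8.61, spread over several transcripts. In each of these 5 genes before Mrpl3, the transcript of another biotype named was shorter than the longest protein-coding one. The transcripts of a gene share exons, so such shares are estimates from the parts that differ, and whether the short RNAs carry the coding sequence was not tested.

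**Figure D4:**
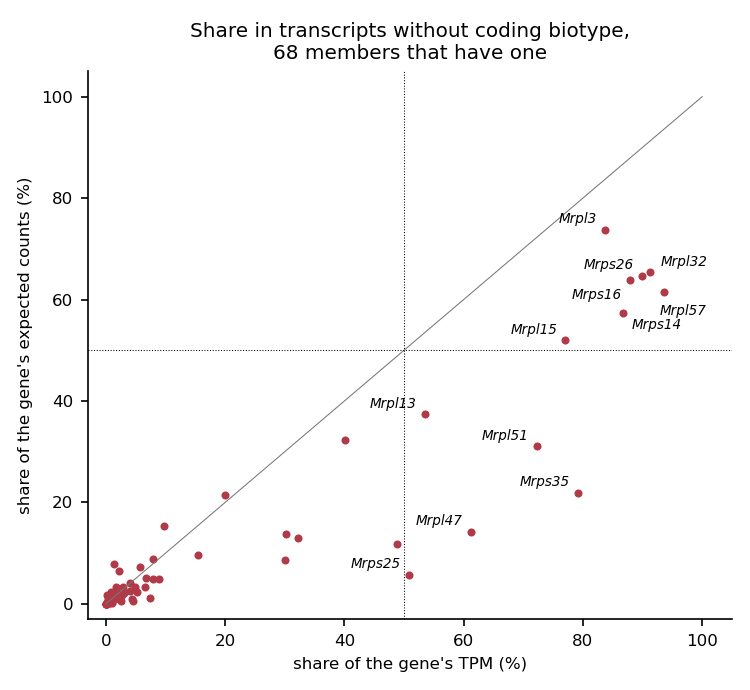
Share of each member's TPM (x axis) and of its expected counts (y axis) in transcripts of a biotype other than protein-coding. Values are means of 3 libraries for the 68 members with such a transcript. The line marks equal shares and the dotted lines 50%. The 12 named members are at 50% or more in TPM, and 7 of them are also above 50% in counts.

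Mrpl23, a large-subunit protein whose bacterial relative lies by the exit of the peptide tunnel, was split from a pseudogene in ways that differed between quantifications. Its copy Mrpl23-ps1 (chr2:74591330-74591909, minus strand) matches a transcript of Mrpl23 (chr7:142532686-142540747) over 540 bases at 100% identity. The second transcript table gave Mrpl23 95.6, 195 and 100.3 counts and the pseudogene 558, 809 and 687 counts in replicates 1, 2 and 3. The gene table gave Mrpl23 246, 558 and 344 counts and the pseudogene 370, 388 and 389 counts. Mrpl23 thus held 14.6%, 19.4% and 12.7% of their joint counts in the second transcript table and 39.9%, 59.0% and 46.96% in the gene table. In the gene table its TPM varied 1.46-fold between libraries (adjusted p = 1.66e-07 for the counts, chi-square test; 0.186 without replicate 2), while the TPM of both entries together was 25.2, 22.7 and 24.9, a ratio of 1.11. The level of Mrpl23 is therefore uncertain, and so is its difference between libraries.

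**Figure D5:**
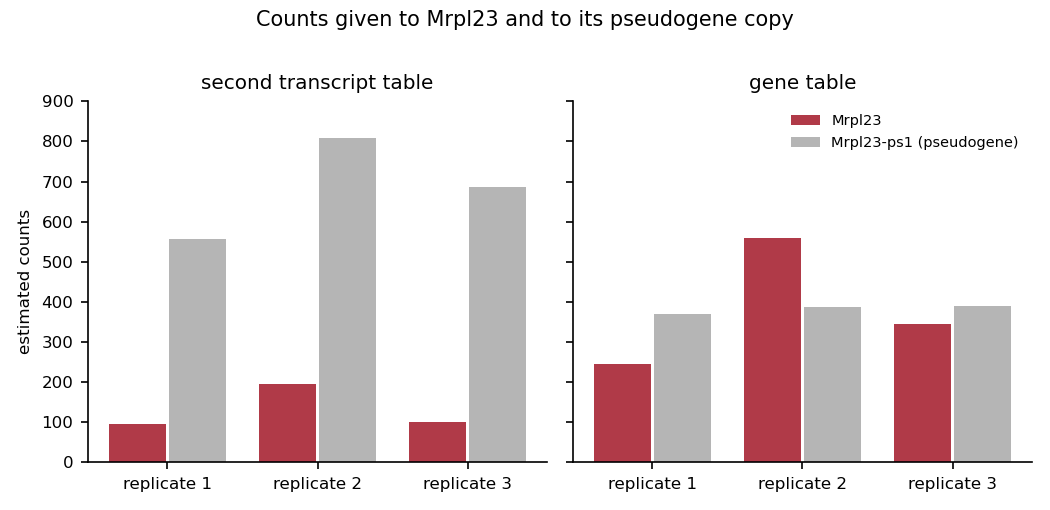
Estimated counts given to Mrpl23 (red) and to its pseudogene copy (grey) in each library, in the second transcript table (left) and in the gene table (right). Mrpl23 has 95.6 to 195 counts in the second transcript table, where the pseudogene has more in every library, and 246 to 558 counts in the gene table.

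Pseudogene copies of at least 95% identity over 200 bases or more were found for 19 members, 24 copies in all, and 1 of the 24, Mrpl23-ps1, reached 1 TPM. As deposited, the second table gave members a median log2 TPM difference of -1.15 from the first, and 65 members (83.3%) were 2-fold apart or more, against 76.4% of detected coding genes. Without replicate 3 it was 4 members. The largest differences as deposited were those of Mrpl23 at -2.89, Mrps12 at -1.46, Mrps21 at -1.35, Mrpl13 at -1.28, Mrpl36 at -1.23 and Mrpl43 at -1.22. Once both were rescaled over coding genes, the median difference was -0.01 and 1 member, Mrpl23 at -1.81, remained 2-fold apart (1.28%), against 0.63%. The next largest difference on that scale was that of Mrpl19, at 0.76.

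Genes listed as partners of the members had a lower median than the members. This list of 49 genes outside the symbol rule includes 5 proteins of the mitochondrial ribosome itself. It had a median of 3.64 ± 0.236 TPM, with 47 at 1 TPM or more and 6 at 10 TPM or more throughout. In this list 16 genes differed between libraries in the same test (50.1% of all genes tested). Among the 5 ribosomal proteins with other names, Aurkaip1 was at 18.6 ± 2.27 TPM, Chchd1 at 16.2 ± 0.600 TPM, Dap3, a GTP-binding protein of the small subunit, at 7.43 ± 0.580 TPM, Ptcd3 at 3.797 ± 0.389 TPM and Gadd45gip1 at 2.99 ± 0.285 TPM.

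Among 11 translation factors the median was 3.22 ± 0.0924 TPM. The elongation factor Tufm, which brings aminoacyl-tRNA to the ribosome, was the highest at 12.4 ± 1.39 TPM, followed by the translocation factor Gfm1 at 6.75 ± 0.577 TPM and the initiation factor Mtif2 at 5.50 ± 0.271 TPM. The release factor Mtrf1l at 1.68 ± 0.299 TPM and Mtfmt, which formylates the initiator methionine, at 1.65 ± 0.0551 TPM were the lowest. The 25 assembly and ribosomal RNA factors had a median of 2.66 ± 0.154 TPM. C1qbp was at 23.2 ± 1.49 TPM, Rbfa, a factor of small-subunit maturation, at 17.6 ± 1.402 TPM and the helicase Dhx30 at 9.603 ± 1.24 TPM, against 1.07 ± 0.140 TPM for the ribosomal RNA methyltransferase Mrm3 and 0.420 ± 0.125 TPM for Mettl15. For mitochondrial RNA synthesis and stability, Slirp was at 21.4 ± 3.62 TPM, its binding partner Lrpprc at 8.16 ± 0.901 TPM and the polymerase Polrmt at 5.14 ± 1.22 TPM. The packaging and transcription factor Tfam was at 4.33 ± 0.0751 TPM and the elongation factor Tefm at 2.46 ± 0.0709 TPM. Oxa1l, which inserts newly made proteins into the inner membrane, was at 9.95 ± 0.352 TPM and Letm1 at 5.85 ± 0.509 TPM.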

How the data were processed

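Total RNA of the cytosolic fraction was measured in 3 libraries of 1 group. Per the file headers and accompanying text, the authors quantified transcriptome alignments (mm10, annotation M21) into a gene table and a first transcript table. These deposited tables hold expected counts and TPM. The second deposited transcript table, quantified from the reads, holds estimated counts and TPM. The sources used here name no aligner, quantifier or version. Members and gene lists were chosen with earlier results of these data known.

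Named members are the 4 highest and 3 lowest of each class and the 6 with the largest library ratio. Also named are the 6 with the largest ratio between quantifications, the 6 with the largest share in other biotypes, and a set of 14. Of each partner list, the 3 highest and 2 lowest are named. Entries that name no gene, nearly all a phiX spike-in, held 0.449%, 0.203% and 0.141% of the counts and were left out. Expected counts were rounded, scaled by TMM and tested by chi-square where they summed to 30 or more over libraries. The test was run first on simulated counts that held counting error only, so that run does not bear on spread beyond it. Log values used log2(TPM + 1), which understates differences of low genes, and quantifications were compared with 0.1 added. Pseudogene copies were found with blastn 2.17.0. Alternatives varied scaling, pseudocount, filter, quantification and libraries. Other tools were Python 3.11.15 with scipy 1.17.1, and R 4.3.3 with edgeR 4.0.16 and DESeq2 1.42.0. Members had 103 to 1165, 184 to 1755 and 190 to 1314 counts in replicates 1, 2 and 3.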

Additional observations from a re-analysis of the deposited data

How the results depend on the processing

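The order of libraries turned round in 1 setting: the members' median log2(TPM + 1) difference of replicate 3 from replicate 1, 0.16 in the gene table, was -0.82 in the second transcript table as deposited and 0.04 once that table was rescaled over coding genes, settings chosen after seeing the data. Of the other summary values, 37 of 63 repeats stayed within the spread between libraries or within 1.5 times a count. Part of these 37 could not have come out otherwise. They are the means of per-library values with 1 library left out, and the filter at 1 TPM, which all 78 members pass. On TPM rescaled over coding genes, the members' median was 38.3 TPM, 76 reached 10 TPM in all libraries, their SD was 0.94 and their difference from all coding genes 4.53 (both log2). In the second transcript table these values were 4.34 TPM, 3 members, 0.75 and 2.21. There the subunit difference was 0.25, 41 members differed between libraries, and 78 reached a ratio of 1.5 in TPM, with replicate 1 highest in each. The median share in other transcript biotypes was 6.16% in that table. With a pseudocount of 0.1 the SD was 0.96, the difference from all coding genes 5.12 and the subunit difference 0.43. The subunit difference was 0.37 by symbol and 0.34 in counts per kilobase of the longest coding transcript, a setting chosen after seeing the data. Against coding genes at 1 TPM or more, the difference of the members was 0.31. By counts, also chosen after seeing the data, the median share in other transcript biotypes was 2.32%. With a pseudocount of 1, 34 members were 2-fold apart between quantifications, and 1 after rescaling both, again chosen after seeing the data. The cause was not tested, beyond the construction of each setting.

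Leaving out 1 library at a time gave 7 (without replicate 1) to 22 members differing between libraries, 0 (without replicate 1) to 3 with a ratio of 1.5 or more (1 without replicate 3), a coefficient of variation of 4.11% (without replicate 1) to 8.09%, and 4 (without replicate 3) to 77 members 2-fold apart between quantifications. The members' median ran from 8.935 to 9.65 TPM, the SD of levels from 0.853 to 0.870 and the subunit difference from 0.380 to 0.402. These are means of per-library values. Leaving out 1 of 3 such values cannot move their mean beyond their SD, so staying within that spread is no test. With DESeq2 size factors 21 members differed between libraries, of which 20 were among the 27, and with total counts 20, of which 13 were.

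No paired analysis was possible because all samples belong to 1 group. The limits are those of 3 libraries from 1 donor identifier with no untreated cells: no response to Lipid A can be read from them. Depth limits the members with the fewest counts, such as Mrps28 with 103 counts in replicate 1.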
